A study of Mus musculus with 4 samples.

Results

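Eosinophil, basophil and mast cell granule genes were described in leukaemic cells of the mouse MLL-AF9 model, a myeloid leukaemia driven by a fusion of MLL with AF9. The set was chosen by symbol and holds 8 genes of the 16545 symbols in the authors' deposited table: the eosinophil genes Prg2, Prg3 and Epx, and the basophil and mast cell genes Prss34, Mcpt8, Tpsb2, Cpa3 and Ms4a2. All 8 were present, in 9 RefSeq transcripts, since Ms4a2 has 2. The cells came from the bone marrow of C57BL/6 mice and were grown in liquid culture. Both groups carried the genotype Ring1a-/-, Ring1b f/f and Cdkn2a-/-. By that label both alleles of Ring1a and of Cdkn2a are null, and both alleles of RING1B (gene Rnf2) are floxed. RING1A and RING1B are the ubiquitin ligase subunits of Polycomb repressive complex 1. Cells were treated for 72 h with EtOH (ethanol; 2 samples) or OHT (in common usage hydroxytamoxifen, the ligand that activates a Cre recombinase; 2 samples). The labels name neither the Cre line nor whether a group's samples are separate mice or cultures, so p-values speak only of the spread among these samples and part of it may be technical. Cells given OHT but lacking the floxed allele were not analysed here.

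Eosinophils, basophils and mast cells arise from GATA-dependent granulocyte progenitors in bone marrow and store preformed cationic or proteolytic proteins in cytoplasmic granules. Eosinophil granules hold major basic protein (Prg2), its homologue Prg3 and eosinophil peroxidase (Epx), a haem enzyme related to myeloperoxidase. Mouse basophils store the serine proteases Mcpt8 and Prss34. Mast cells store the tryptase Tpsb2 and carboxypeptidase A3 (Cpa3) on serglycin proteoglycan. Both lineages use Ms4a2, the beta chain of the high-affinity IgE receptor.

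The stretches before the transcription starts were searched for GATA words because GATA factors are known regulators of these lineages. Those shown are of the 4 among 6 searched genes that hold such a word within 150 bases. Each run holds 150 bases ending 1 base before the start, 5′ to 3′ on the gene's strand, from RefSeq (GRCm38.p6), with GATA words in capitals. The words searched on both strands were AGATAA or TGATAA, and likewise AGATAG or TGATAG. The windows lie at chr17:25298244-25298393 (plus strand) for Prss34, chr3:20242182-20242331 (minus strand) for Cpa3, chr19:11623720-11623869 (minus strand) for Ms4a2 and chr2:84988065-84988214 (plus strand) for Prg3.
Prss34: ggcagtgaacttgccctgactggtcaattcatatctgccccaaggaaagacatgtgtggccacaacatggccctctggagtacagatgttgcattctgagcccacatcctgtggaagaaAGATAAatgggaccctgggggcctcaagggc
Cpa3: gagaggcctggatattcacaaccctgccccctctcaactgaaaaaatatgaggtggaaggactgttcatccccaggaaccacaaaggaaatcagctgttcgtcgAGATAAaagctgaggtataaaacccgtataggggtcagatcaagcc
Ms4a2: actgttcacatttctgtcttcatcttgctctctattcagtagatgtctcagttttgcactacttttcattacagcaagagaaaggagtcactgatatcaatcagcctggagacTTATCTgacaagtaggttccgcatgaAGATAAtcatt
Prg3: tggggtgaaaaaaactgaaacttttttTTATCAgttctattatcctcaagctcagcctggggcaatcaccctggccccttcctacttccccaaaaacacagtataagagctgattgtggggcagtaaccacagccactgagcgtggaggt
The words begin 31 bases before the start in Prss34, 46 in Cpa3, 37 and 11 in Ms4a2 and 123 in Prg3. Over the full 250 bases before the start, 26.5% of the 32851 promoters of that table hold at least 1 GATA word, and 6.40% hold 2 or more. Ms4a2 holds 3 there, while Epx and Mcpt8 hold none. The C/EBP word TTNNGNAA, searched likewise on both strands, lies in 36.8% of all promoters and, among these 6 genes, in Prg3, where it does not overlap the GATA word. Prg2 and Tpsb2 were not searched. A match describes letters, not a bound site.

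The authors' table gives 1 mean per group, and whole reads of the 2 libraries behind each mean were solved from it. Within a group the libraries bear the letters A and B, in no relation to the replicate numbers of the labels, and their totals ran from 3841243 to 6255320 reads. Values per library are normalised reads, that is, reads divided by the library's size factor; the authors' means also hold 1 added read per library, which pulls folds of low genes towards 1. The targeted gene Rnf2 was not lower with OHT: the authors' deposited table lists it at 636 with EtOH and 757 with OHT (adjusted p = 1.0). Ring1, which encodes RING1A, had means of 68.3 and 122 there (adjusted p = 0.385). Cdkn2a, named after its values were seen, had means of 49.8 and 48.5 there for 1 transcript and of 29.9 and 31.6 for another. Which exons are deleted is not given in the sources used here, so these counts do not check the labels. Of 18061 transcripts, 5.48% had an adjusted p under 0.05 by the authors' deposited table, 3.62% higher with OHT and 1.85% lower. Across 7894 transcripts with both means of at least 50, log2 reads correlated with a Pearson's r of 0.940 for the EtOH pair, 0.967 for the OHT pair and 0.826 to 0.919 for pairs of unlike treatment; transcripts are not independent replicates. Of 8 measured lymphoid genes 4 had at most 3 reads in each group, while Cebpa, a myeloid transcription factor gene picked for naming after its values were seen, had means of 1097 and 1206 by the authors' deposited table.

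None of the 3 eosinophil granule genes passed by the authors' deposited table, yet each had lower values in both OHT libraries than in both EtOH libraries. Prg2, the major basic protein gene, had 775 and 1207 normalised reads in EtOH libraries A and B and 535 and 634 in OHT libraries A and B. Its EtOH library B was the highest, and the groups did not overlap. The authors' deposited table gives means of 992 and 586, a 1.69-fold lower level with OHT (p = 0.0912, adjusted p = 0.488). Prg3, which encodes the homologue of major basic protein, had 94.5 and 174 normalised reads with EtOH and 60.5 and 78.1 with OHT. The order of its libraries was that of Prg2, and the means of 136 and 70.3 given by the authors' deposited table differ 1.93-fold (adjusted p = 0.628).

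Epx, the peroxidase gene, showed the widest difference of the 3, with 322 and 641 normalised reads with EtOH and 168 and 123 with OHT. Both OHT libraries lay below both EtOH libraries, and EtOH library B was again the highest. The authors' deposited table gives 482 and 146, 3.29-fold lower with OHT, with a p of 0.0440 that did not hold after adjustment (adjusted p = 0.317). Limma-voom on the solved reads of 11338 transcripts called Epx lower (log2 fold change -1.60 ± 0.36 SE, adjusted p = 0.0176), and did not call Prg2 (-0.73 ± 0.25, adjusted p = 0.0776) or Prg3 (-0.86 ± 0.38, adjusted p = 0.156). That fit calls 15.2% of transcripts, 5.49% lower and 9.72% higher. The groups do not overlap for 51.0% of all transcripts, with both OHT libraries lower for 24.6%. The deposited log2 fold change is below 0 for all 3 genes and for 48.3% of all transcripts. In bulk RNA, fewer cells of a type and less RNA per cell cannot be told apart.

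**Figure D1:**
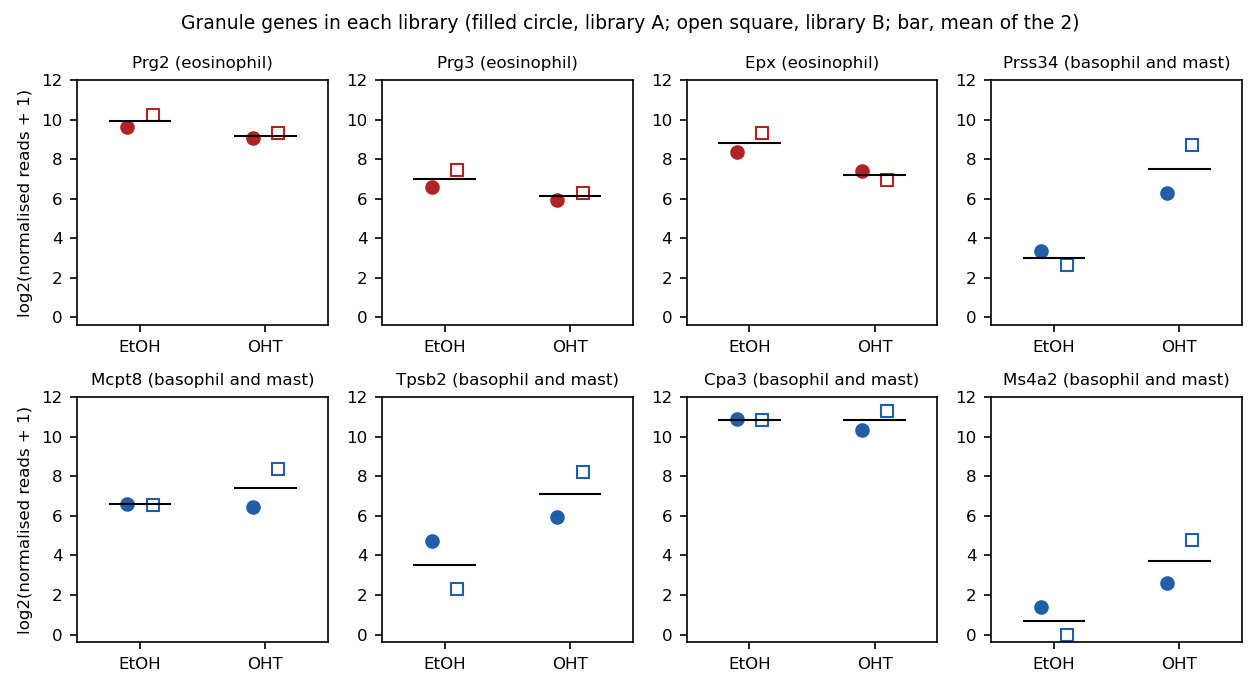
Each panel plots log2(normalised reads + 1) of 1 gene in the 4 libraries, with library A as a filled circle, library B as an open square and their mean as a bar. The 3 eosinophil genes sit lower in both OHT libraries, while for all 5 basophil and mast genes OHT library B is the highest point.

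None of the 5 basophil and mast genes passed by the authors' deposited table either, and their means differed from 1.03-fold to 30.3-fold. Prss34, the basophil serine protease gene, had 9.12 and 5.21 normalised reads in EtOH libraries A and B and 78.1 and 419 in OHT libraries A and B. Both OHT libraries lay above both EtOH libraries, but they also lay far from each other. The authors' deposited table gives means of 8.23 and 249, 30.3-fold higher with OHT (p = 0.0630, adjusted p = 0.396). Limma-voom called Prss34 higher (4.47 ± 1.15 SE, adjusted p = 0.0281).

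Tpsb2, a mast cell tryptase gene, had 25.7 and 3.91 normalised reads with EtOH and 61.3 and 298 with OHT. The groups did not overlap, and both groups had a wide gap between their libraries. The means of 15.9 and 181 given by the authors' deposited table differ 11.4-fold (adjusted p = 0.608), and limma-voom gave 3.38 ± 1.04 SE (adjusted p = 0.0537). Ms4a2, the IgE receptor beta chain gene, had few reads. Its transcript NM_013516 had 2 and 0 reads with EtOH and 6 and 24 with OHT, a ratio of normalised reads over the groups of 14.2 with a 95% exact counting interval of 3.60 to 123. Its OHT library B again held the most reads, and this transcript was under the read minimum of the limma-voom fit. The other transcript, NM_001276330, had 0 reads with EtOH and 2 with OHT, which is within the floor of 3 reads, so no fold is given.

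Mcpt8, the other basophil protease gene, had 96.2 and 93.7 normalised reads with EtOH and 85.7 and 325 with OHT. OHT library A lay below both EtOH libraries and OHT library B above them, so the groups overlapped. Its means of 96.0 and 206 carry, by the authors' deposited table, an adjusted p of 1.0. Cpa3, the mast cell carboxypeptidase gene, had the most reads of the 8, with 1943 and 1812 normalised reads with EtOH and 1305 and 2562 with OHT. The EtOH libraries lay between the OHT libraries, and the means of 1879 and 1935 given by the authors' deposited table differ 1.03-fold (adjusted p = 1.0). The limma-voom value for Cpa3 was -0.04 ± 0.29 SE (adjusted p = 0.943). Of the 5 genes, 3 had both OHT libraries above both EtOH libraries, as had 26.4% of all transcripts. The deposited log2 fold change is above 0 for all 5, that of Cpa3 being 0.04 and of the other sign by limma-voom, and for 51.7% of all transcripts.

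The 2 OHT libraries lay further apart for each basophil and mast gene than for any eosinophil gene. OHT library B exceeded OHT library A 5.36-fold for Prss34 (95% exact counting interval 4.26 to 6.80), 4.86-fold for Tpsb2 (3.74 to 6.39), 3.79-fold for Mcpt8 (3.02 to 4.80), 5.32-fold for Ms4a2 (2.12 to 15.9) and 1.96-fold for Cpa3 (1.84 to 2.09); these intervals cover counting error only. The same ratio was 1.19 for Prg2, 1.29 for Prg3 and 0.731 for Epx. Among 8470 transcripts with an OHT mean of at least 50, the median absolute log2 ratio between the 2 OHT libraries was 0.21. A gap at least as wide as that of Prss34 was found for 7 of those transcripts (0.0826%), of Tpsb2 for 15 (0.177%), of Mcpt8 for 29 (0.342%) and of Cpa3 for 296 (3.49%), in either direction and each gene itself included.

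Between the EtOH libraries the order turned for Tpsb2, with library A 6.58-fold above library B on 31 and 3 reads, while Mcpt8 and Cpa3 were close, at 1.03-fold and 1.07-fold. The eosinophil genes were higher in EtOH library B, 1.56-fold for Prg2, 1.85-fold for Prg3 and 1.99-fold for Epx. Mpo and Elane, of neutrophil azurophil granules, had the library order opposite to that of Tpsb2 in both groups. Mpo (myeloperoxidase) had 18.2 and 160.2 normalised reads in EtOH libraries A and B and 351 and 50.2 in OHT libraries A and B, and Elane (neutrophil elastase) 110.3, 527, 504 and 159.6. The 7 measured azurophil genes summed to 2510.2 and 4362 normalised reads with EtOH and to 4046 and 3729 with OHT; all 7 were higher in EtOH library B, and 3 of 7 in OHT library B. Of those 7, Lyz2, which macrophages also express, rose 2.41-fold in the authors' deposited table (adjusted p = 0.000505) and no other was called. The part of these library differences in the values of the granule genes was not tested. Mpo and Elane were picked for naming after their values were seen.

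**Figure D2:**
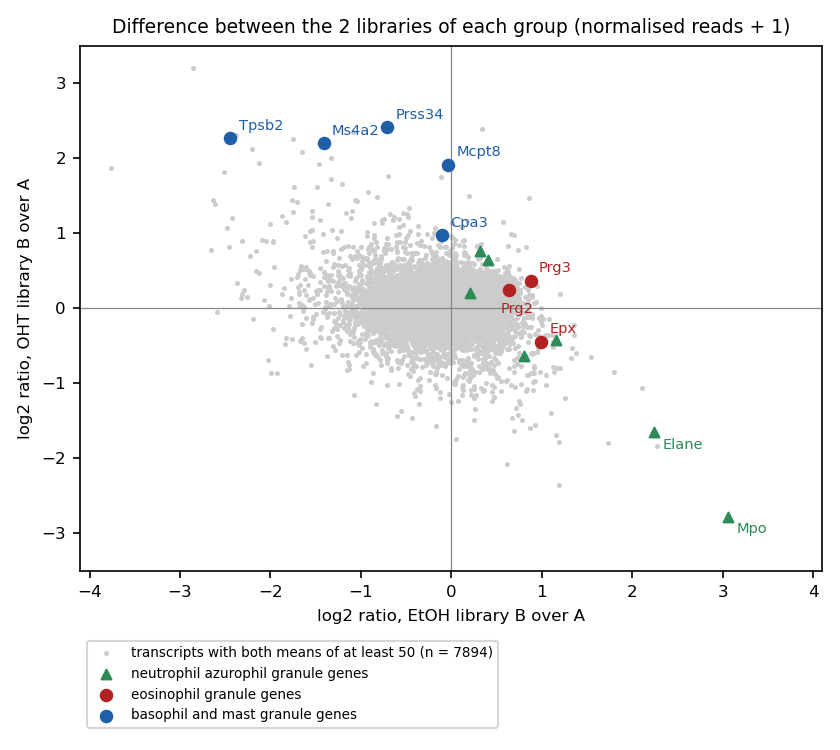
Each point is a transcript, with the log2 ratio of EtOH library B over A on the x axis and of OHT library B over A on the y axis, both on normalised reads + 1; grey points are the 7894 transcripts with both means of at least 50. The basophil and mast genes lie above 0 on the y axis, the eosinophil genes right of 0 on the x axis, and Mpo and Elane at the lower right.

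Set side by side, the eosinophil sum was lower in both OHT libraries, while the basophil and mast sum was lower in OHT library A and higher in OHT library B than in either EtOH library. The summed normalised reads of the 3 eosinophil genes were 1191 and 2022 with EtOH and 763 and 835 with OHT. Those of the basophil and mast genes were 2076 and 1915 with EtOH and 1536 and 3632 with OHT, a sum that Cpa3 dominates. Without Cpa3 they were 133 and 103 with EtOH and 231 and 1069.5 with OHT. The eosinophil sum was 8.97 and 19.7 times this latter sum in EtOH libraries A and B, and 3.31 and 0.781 times in OHT libraries A and B. With Cpa3 included, it was 0.574 and 1.06 times the basophil and mast sum with EtOH, and 0.497 and 0.230 times with OHT. By that ratio OHT library A lay close to EtOH library A. The median log2 fold change in the authors' deposited table was -0.95 over the 3 eosinophil genes and 3.16 over the 5 basophil and mast genes, against 0.04 over all transcripts. The latter median is the value of Ms4a2, which rests on 2 and 30 reads. By limma-voom, where Ms4a2 was under the read minimum, the medians were -0.86 and 2.06; without 1 library they ranged from -1.36 to -0.47 and from 1.08 to 3.18, the values nearest 0 being those with EtOH library B and with OHT library B left out, respectively. With a pseudocount of 10 on the means the basophil and mast median was 1.18. Within the eosinophil genes, Prg3 stood at 0.122, 0.145, 0.113 and 0.123 of Prg2 in EtOH libraries A and B and OHT libraries A and B, and Epx at 0.415, 0.531, 0.314 and 0.194.

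Per kilobase of transcript, Cpa3 had the highest level with EtOH (1297 by the authors' deposited mean), followed by Prg2 (1184). The next were Epx (179), Prg3 (143) and Mcpt8 (115), and then Tpsb2 (14.2), Prss34 (6.75) and Ms4a2 (1.88). Cpa3 and Prg2 overlapped across the EtOH libraries, with levels per kilobase of 1341 and 1251 against 924 and 1440.4. Prg3 overlapped with Epx and with Mcpt8, and Prss34 with Tpsb2, while Mcpt8 lay below Epx in both EtOH libraries and Ms4a2 below Prss34. With OHT the order of the authors' deposited means per kilobase was Cpa3 (1335), Prg2 (699), Mcpt8 (247), Prss34 (204), Tpsb2 (162), Prg3 (74.1), Epx (54.4) and Ms4a2 (16.7). Across the OHT libraries Mcpt8 overlapped with Prss34, Prss34 with Tpsb2 and Tpsb2 with Prg3, while the other neighbours in that order, Prg3 and Epx among them, did not overlap. In OHT library A alone Prg3, Epx, Prss34 and Tpsb2 lay between 54.8 and 64.0 per kilobase. No window of 50 bases in the 9 member transcripts was found in a transcript of another gene of GENCODE M21, tryptase and protease paralogues included.

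Leaving out 1 library changed which members limma-voom called, and for Mcpt8 and Cpa3 the direction too. Epx was called lower in all 4 omissions, with log2 fold changes from -2.13 (EtOH library A omitted) to -1.14 (EtOH library B omitted). All 3 eosinophil genes were called lower without EtOH library A, Prg2 at -1.05 (adjusted p = 0.00798) and Prg3 at -1.36 (adjusted p = 0.0177), where 9.48% of transcripts were called lower and 14.1% higher. Without EtOH library B, Prg2 fell short at -0.41 (adjusted p = 0.240) and Prg3 at -0.47 (adjusted p = 0.447). Prss34 ranged from 3.34 without OHT library B (adjusted p = 0.000516) to 5.76 without OHT library A (adjusted p = 4.49e-11), and lost its call without EtOH library B (4.12, adjusted p = 0.0561). Tpsb2 was 2.31 without OHT library B (adjusted p = 0.0179), 4.59 without OHT library A, 4.78 without EtOH library A and, with EtOH library B omitted, 2.26 (adjusted p = 0.132). Mcpt8 was -0.15 without OHT library B (adjusted p = 0.898) and 1.77 without OHT library A (adjusted p = 0.00300). Cpa3 was -0.53 and 0.45 in the same omissions, with no call in either. Of all transcripts, 5.79% were called lower and 7.55% higher with EtOH library B omitted, 1.17% and 7.01% without OHT library A (8.18% in all) and 3.28% and 9.23% without OHT library B. With no filter on reads, 2 eosinophil genes were called lower and 3 basophil and mast genes higher, where 4.43% and 9.11% of transcripts were called. TMM scaling called 1 and 2 (4.67% and 10.9% of transcripts), total-read scaling 1 and 1 (4.30% and 10.3%) and the sum over transcripts of a gene 1 and 1 (629 of 11072 genes, 5.68%, called lower and 1110 higher). Each omission of a library leaves its group with 1 library, which is assumed to vary like the other group.

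**Figure D3:**
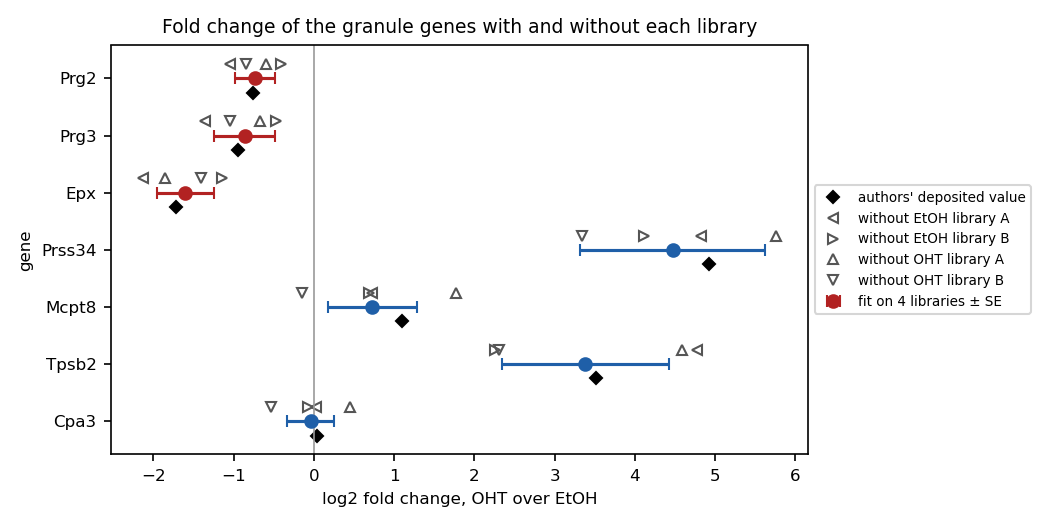
Log2 fold change (OHT over EtOH, x axis) of the 7 genes that limma-voom fitted, as circles with SE bars, beside the authors' deposited value as a black diamond and the values without each library as open triangles. Epx stays below 0 and Prss34 and Tpsb2 stay above 0 in every omission, while Mcpt8 and Cpa3 fall on both sides.

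Other genes of these lineages were read from lists of eosinophil, mast and basophil genes, and few passed the test. None of 10 measured further eosinophil genes passed in the authors' deposited table, and their median log2 fold change was -0.01. The interleukin-5 receptor gene Il5ra, which serves eosinophil growth and survival, had means of 17.1 and 17.3, and the eotaxin receptor gene Ccr3 of 9.77 and 9.51, by the authors' deposited table. Ear6 of the eosinophil-associated ribonucleases was listed at 17.9 and 10.1 there, and Ear1 and Ear11 had at most 3 reads in each group. The most abundant of the list were Emr1 (1259 and 2846), which macrophages also express, and the lipoxygenase Alox15 (91.8 and 86.6), by the authors' deposited table. Limma-voom gave Emr1 1.35 ± 0.41 SE (adjusted p = 0.0524), and 0.58 to 2.16 without 1 library. Limma-voom fitted 5 of the 10 and called none of them. It called 1 gene higher with TMM scaling, total-read scaling or no filter, where 10.9%, 10.3% and 9.11% of fitted transcripts were. Il5ra, Ccr3 and the Ear genes were named after their values were seen.

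None of 9 measured further mast cell proteases passed in the authors' deposited table, though all 9 had a positive log2 fold change and 5 of them had at most 3 reads in each group. Granzyme B (Gzmb), a protease of cytotoxic lymphocytes and of mast cells, had 77.1 and 14.3 normalised reads with EtOH and 208 and 865 with OHT. It followed the library order of Tpsb2, and limma-voom called it higher (3.43 ± 0.88 SE, adjusted p = 0.0281), though not without EtOH library B (2.40, adjusted p = 0.0759). The tryptase Tpsg1 had 10.8, 5.21, 16.8 and 88.2 normalised reads in EtOH libraries A and B and OHT libraries A and B (limma-voom adjusted p = 0.137). Among the chymases of mature mucosal and connective tissue mast cells, Mcpt1, Mcpt2 and Mcpt4 had no EtOH reads and at most 2 reads in an OHT library. Cma1, another chymase of connective tissue mast cells, had 18 and 5 reads with EtOH and 31 and 30 with OHT, with means of 11.8 and 30.7 by the authors' deposited table (adjusted p = 0.453). These 4 chymases were named after their values were seen.

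Of 15 measured IgE receptor and surface genes none passed in the authors' deposited table. OHT library B exceeded OHT library A for 13 of these 15 genes and for 15 of 16 genes of the transcription factor list. The same held for 11 of 12 granule proteoglycan genes, 8 of 10 histamine, leukotriene and prostaglandin D genes and 7 of 9 further mast cell proteases. It held for 3 of 10 further eosinophil, 8 of 14 monocyte and macrophage, 4 of 7 megakaryocyte and 3 of 8 lymphoid genes. For azurophil, secondary and tertiary granule and erythroid genes it was 3 of 7, 4 of 10 and 3 of 5. The share over all transcripts was not computed. Limma-voom fitted 9 of the 15 surface genes and called 2 of these higher, 3 with TMM scaling. With no filter, where all 15 were fitted, 5 were called higher. The number called changed when 1 library was left out, and the median log2 fold change of the fitted genes then ranged from 0.45 to 0.83. Of all fitted transcripts limma-voom called 9.72% higher, 10.9% with TMM scaling and 9.11% with no filter. Over 8470 transcripts with an OHT mean of at least 50, the median log2 ratio of OHT library B over A was 0.05. The alpha chain Fcer1a, which the receptor needs to bind IgE, had 1 and 0 reads with EtOH and 0 and 4 with OHT. The receptor's gamma chain Fcer1g, shared with other Fc receptors, had means of 793 and 815 by the authors' deposited table. The 1 Kit transcript listed, of the mast cell growth factor receptor, had 4 and 0 reads with EtOH and 3 and 5 with OHT. The interleukin-33 receptor gene Il1rl1 (NM_001025602) had 324 and 117 normalised reads with EtOH and 307 and 1166 with OHT, and its groups overlapped. Csf2rb, the common beta chain of the receptors for interleukin-3, interleukin-5 and GM-CSF, and Csf2rb2, the mouse beta chain specific to the interleukin-3 receptor, were the most abundant, with means of 3572 and 5600.0 and of 2146 and 4215 by the authors' deposited table (adjusted p = 0.251 and 0.313). Limma-voom called Csf2rb2 higher (adjusted p = 0.0370), though not without EtOH library B (adjusted p = 0.142) nor when OHT library B was left out (adjusted p = 0.103). Fcer1a, Fcer1g, Kit and Il1rl1 were named after their values were seen.

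In the list of histamine, leukotriene and prostaglandin D genes 1 of 10 rose in the authors' deposited table, Ptgs1 (cyclooxygenase), 2.56-fold from 591 to 1515 (adjusted p = 7.95e-05). Of all transcripts, 3.62% rose there, and limma-voom called 9.72% of those it fitted higher. Limma-voom called 2 of the 10 higher, and 2 to 4 without 1 library. Ltc4s had 17.4 and 28.6 normalised reads with EtOH and 142 and 62.5 with OHT (limma-voom 2.15 ± 0.53 SE, adjusted p = 0.0247). Its log2 fold change was 1.52 to 2.70 without 1 library. Hdc, which makes histamine, had 1236 and 1044 normalised reads with EtOH and 1314 and 2302 with OHT (limma-voom adjusted p = 0.154). Ltc4s and Hdc were chosen after their values were seen. Of 12 granule proteoglycan genes 1 rose, the sulphotransferase Chst15 (2.05-fold, adjusted p = 0.0343 in the authors' deposited table), which limma-voom did not call when OHT library A was left out (adjusted p = 0.150) nor when OHT library B was (adjusted p = 0.0810). Limma-voom called 4 of the 12 higher, also with TMM scaling and with no filter, where 9.72%, 10.9% and 9.11% of transcripts were called higher. The number called changed when 1 library was left out, and the median log2 fold change of the list then ranged from 0.32 to 0.92. Serglycin (Srgn), the proteoglycan that binds mast cell proteases, had means of 1377 and 1498 by the authors' deposited table and was named after its value was seen. Of 16 measured genes in the list of transcription factors of these lineages 2 rose in the authors' deposited table. Tal1, a bHLH factor of erythroid, megakaryocyte and mast cell development, rose 9.85-fold from 21.0 to 207 (adjusted p = 0.0372). Trib1 rose 2.32-fold (adjusted p = 0.00841). It is not a transcription factor but a pseudokinase that targets C/EBP alpha for degradation. Limma-voom fitted 15 of the 16. It called 3 of them higher and 1 lower (9.72% and 5.49% of fitted transcripts), and with TMM scaling 4 higher (10.9%). The 1 lower was a transcript of Lmo2 with deposited means of 96.4 and 42.8 (limma-voom adjusted p = 0.0460). Its log2 fold change was -1.46 to -0.95 without 1 library. The other Lmo2 transcript was listed at 26.5 and 28.1, and with summed transcripts 0 of the list were called lower. Tal1 was called by limma-voom in all 4 omissions; Trib1 was not called without OHT library A (adjusted p = 0.0622). Gata2, a factor of mast cell and basophil development, had 2528 and 1809 normalised reads with EtOH and 1339.6 and 3118 with OHT, the same library order as Tpsb2 within each group. By the authors' deposited table Gata1 had means of 19.6 and 37.9 and Cebpe of 1079 and 895, with adjusted p of 0.580 and 0.996. Gata1, Gata2, Cebpe and Lmo2 were named after their values were seen.

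Markers of other cells were read beside these. Of 14 measured monocyte and macrophage genes 5 rose in the authors' deposited table, among them the complement subunits C1qb and C1qc and the scavenger receptor Marco, and the list summed to 5553 and 3031 normalised reads with EtOH and to 8476 and 9294 with OHT. Of 10 measured neutrophil secondary and tertiary granule genes 2 rose, Mmp9 1.90-fold and Mmp8 1.92-fold (limma-voom adjusted p of Mmp8 0.0664 with EtOH library B and 0.0589 with OHT library B left out), and the list summed to 7070.3 and 8492 with EtOH and to 11529 and 11164 with OHT. Of 5 measured erythroid genes Car2 and Epor rose, and the list summed to 534 and 474 with EtOH and to 402 and 554 with OHT. Of 7 megakaryocyte genes Pf4 rose 5.69-fold, and the list summed to 2534 and 1728 with EtOH and to 2618 and 4289 with OHT. Within that list Itga2b had 1169 and 616 normalised reads with EtOH and 628 and 1838 with OHT, the library order of Tpsb2. Pf4 had 249 and 222 in OHT libraries A and B, the other order. Itga2b was named after its values were seen. The 8 lymphoid genes held no call and summed to 319 and 161 with EtOH and to 389.7 and 798 with OHT, most of it Il7r and Cd79b. Il7r had 257 and 44.3 normalised reads with EtOH and 198 and 697 with OHT, also the library order of Tpsb2. Cd79b had the opposite order, with 56.4 and 108 with EtOH and 181 and 91.5 with OHT. These calls are those of the authors' deposited table, which called 3.62% of all transcripts higher. Limma-voom called higher 7 of the 12 monocyte and macrophage genes it fitted, 3 of 6 megakaryocyte genes and 2 of 4 erythroid genes. It called higher 2 of 7 azurophil and 2 of 10 secondary and tertiary granule genes, and none of the 2 lymphoid genes it fitted. Of all fitted transcripts, 9.72% were called higher by limma-voom. The part of other cell types in the values of the granule genes was not tested.

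**Figure D4:**
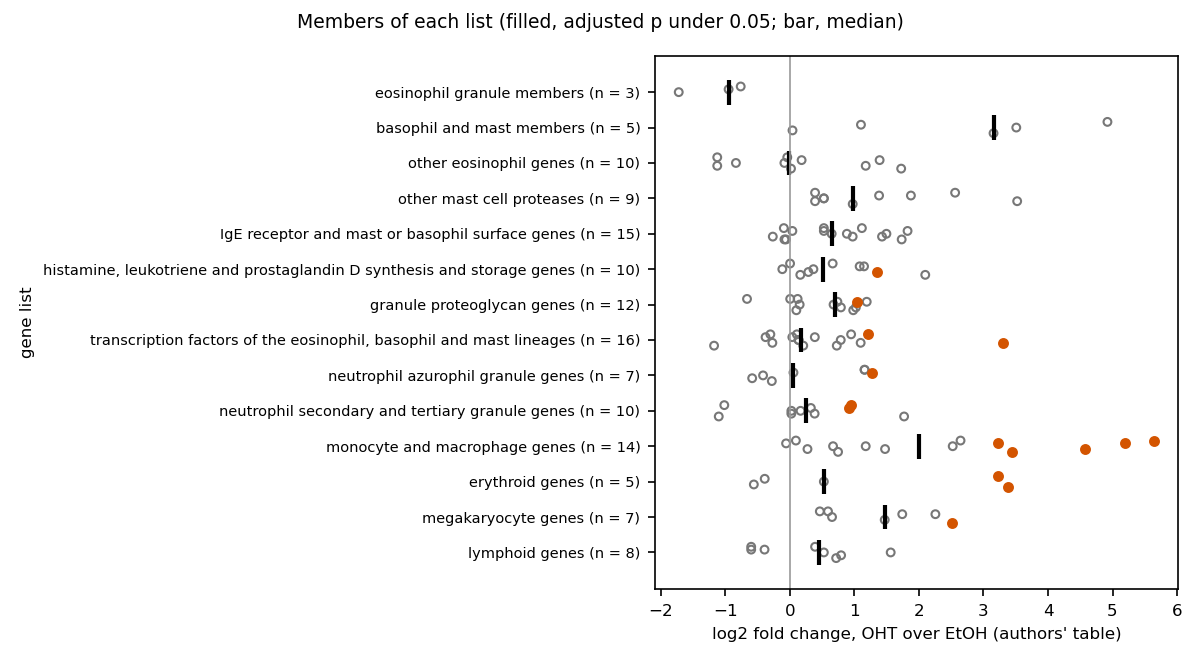
Log2 fold change (OHT over EtOH, authors' deposited table, x axis) of the members of each list, filled where the adjusted p is under 0.05, with the median as a bar. The 3 eosinophil members lie below 0, the 5 basophil and mast members run from 0.04 (Cpa3, -0.04 by limma-voom) to 4.92 without a call, and the monocyte and macrophage list holds 5 called members.

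On the chromosomes, Prg2 and Prg3 lie next to each other on chromosome 2, between 2 genes that fell. Slc43a3, a purine transporter gene on the side of Prg2, had 1053 and 1202 normalised reads with EtOH and 392 and 602 with OHT. It fell 2.27-fold in the authors' deposited table (adjusted p = 0.00142), and limma-voom did not call it without OHT library A (adjusted p = 0.120). P2rx3, an ATP-gated ion channel gene on the side of Prg3, had 2073 and 2823 with EtOH and 362 and 367 with OHT, and fell 6.70-fold (adjusted p = 3.21e-08). Beyond them Rtn4rl2 was listed at 41.1 and 175 (adjusted p = 0.0640) and Ssrp1 at 70.0 and 36.3 (adjusted p = 0.269), by the authors' deposited table. Prss34 and Tpsb2 lie in a cluster on chromosome 17 with Prss28, Prss29 and Tpsg1. Among the genes around that cluster, Baiap3 rose 4.94-fold (adjusted p = 0.0122) in the authors' deposited table. Beside Ms4a2, its family member Ms4a6d rose 7.57-fold (adjusted p = 8.93e-09), while Ms4a3, on the other side, was listed at 417 and 344 (adjusted p = 1.0). Ctsg, beside Mcpt8, was listed at 1054 and 704 (adjusted p = 0.525), Gyg, beside Cpa3, at 1083 and 1253 and Mks1, beside Epx, at 135 and 99.2, all by the authors' deposited table. Other direct neighbours, Prss28, Prss29, Mcpt4, Olfr462 and Cpb1, had at most 4 reads in any library. Rtn4rl2, Ssrp1 and Baiap3 are not direct neighbours of a member and were named after their values were seen.

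**Figure D5:**
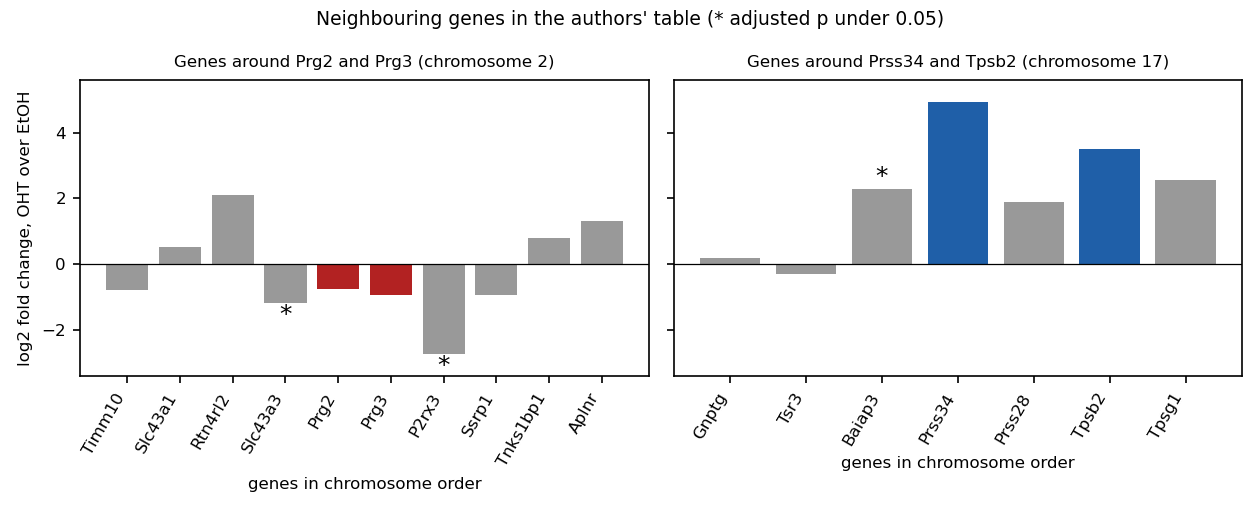
Log2 fold change (OHT over EtOH, y axis) in the authors' deposited table of the genes around Prg2 and Prg3 on chromosome 2 and around Prss34 and Tpsb2 on chromosome 17, in chromosome order, with members coloured and an asterisk where the adjusted p is under 0.05. The genes left out include those with at most 3 reads in each group; Slc43a3 and P2rx3, on either side of Prg2 and Prg3, carry asterisks below 0.

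By level over the 4 libraries, the transcripts of named genes nearest to Prg2 were Llph, Ppcdc and Dus1l, at Euclidean distances of 0.128, 0.185 and 0.220 in log2(normalised reads + 1). Llph had 778, 1156, 568 and 666 normalised reads in EtOH libraries A and B and OHT libraries A and B. Nearest to Cpa3 were Clint1, Klhl5 and Stt3a, at 0.337, 0.428 and 0.432, and none of the other 7 members was among the 3 nearest of either gene. The distance includes level, so members at other levels could not be near. It does not show whether members vary together.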

How the data were processed

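RNA-seq libraries of 2 EtOH and 2 OHT samples were made with a TruSeq RNA kit, per the labels' protocols; the labels state no strand setting. TopHat, DESeq and mm9 appear in the submitters' processing notes with no version or role; the counting program is not given in the sources used here. The deposited table holds the authors' comparison for 18061 transcripts: signal columns with group means of normalised reads, a deposited ratio (fold) of the OHT over the EtOH mean, its deposited log2, and the authors' p-value and adjusted p-value. No coordinates of the mm9 build are printed. Windows and neighbours come from GRCm38.p6 tables, and the deposited file holds no coordinates; transcript lengths come from GENCODE M21.

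Each mean solved uniquely (100.0% of transcripts) into whole reads for 2 libraries; 1 read had been added per library before scaling by size factors of 1.206 and 0.768 (EtOH A and B) and 1.191 and 0.896 (OHT A and B). No transcript solved to 0 reads in all 4 libraries. Limma 3.58.1 (voom, R 4.3.3) was fitted to transcripts with at least 10 reads in 2 libraries, with 2 residual degrees of freedom and Benjamini-Hochberg adjustment over all fitted. The solver and the fit were tested on simulated data. Calls are adjusted p-values under 0.05, and a symbol in a list is read from its most abundant transcript. Reads of overlapping or antisense genes cannot be told apart, and how the authors' test was set is not given in the sources used here. The design took the authors' deposited p-values as the main test. A fit was to replace them only if the file held counts per sample, which it did not. Counts of at most 3 reads are the floor, and 95% intervals of read ratios are exact and cover counting error only.

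The members and lists were chosen with earlier results of these data known. Names follow a rule: all 8 members, their direct neighbours, up to 4 called members of each list or else its 2 most abundant, the 3 transcripts nearest to Prg2 and to Cpa3, and Rnf2 and Ring1. Named outside it are those the text marks as chosen after their values were seen. A few genes within the rule are not reported here. Alternatives tried were limma-voom, TMM and total-read scaling (the latter chosen after seeing the data), no filter, leaving out each library, other thresholds and pseudocounts, and sums over transcripts.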

Additional observations from a re-analysis of the deposited data

How the results depend on the processing

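No paired analysis was possible because the deposited columns carry no replicate numbers and the solved libraries cannot be linked to those of the labels. The count of eosinophil genes called lower, 0 in the authors' table, was 1 with limma-voom, with TMM scaling, with total-read scaling and with summed transcripts, 2 with no filter (4.43% of transcripts called lower there) and 1 to 3 without 1 library. The count of basophil and mast genes called higher, also 0, was 1 with limma-voom, total-read scaling and summed transcripts, 2 with TMM scaling (10.9% called higher), 3 with no filter (9.11%) and 0 to 3 without 1 library. The basophil and mast median of 3.16 was 1.18 with a pseudocount of 10 on the means and 1.08 to 3.18 without 1 library, over the 4 fitted genes. Mcpt8 ranged from -0.15 without OHT library B to 1.77 without OHT library A. Cpa3 turned to -0.04 with limma-voom, -0.06 with no filter, -0.07 with EtOH library B omitted and -0.53 with OHT library B omitted. The median of the further eosinophil genes turned to 0.05 with no filter, 0.13 when EtOH library B and 0.45 when OHT library B was left out, and was -0.39 without EtOH library A. The causes were not tested. With thresholds of 0.01 and 0.1 no member was called in the authors' table. With 2 libraries a group the spread within a group rests on 1 difference, and Ms4a2 (NM_013516), with 2 and 30 reads, was too shallow for a fold narrower than its interval.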
